A study of Mus musculus with 44 samples.

Results

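The genes described here are 10 nuclear genes that control how many mitochondria a cell makes, how their DNA is kept and how the organelles fuse and divide. They were chosen from a list of known regulators by symbol, each symbol was matched to its Ensembl identifier, and all 10 were found among the 38202 genes of the tables. They are the coactivators Ppargc1a (PGC-1 alpha) and Ppargc1b (PGC-1 beta), the transcription factors Esrra, Nrf1 and Gabpa, the mitochondrial DNA factor Tfam, the fusion proteins Opa1, Mfn1 and Mfn2, and the fission protein Dnm1l. RNA was sequenced from liver and skeletal muscle of male mice, 11 wild-type (WT) and 11 Slc16a13 knockout (KO) littermates, which gave 44 libraries in groups of 11. All 22 mice were on a high-fat diet for 15 weeks and were 20 weeks old. The paper gives an overnight fast as the default state of its mice at death, and it names no other state for the sequenced samples. The KO mice carried a constitutive deletion in every tissue, made with CRISPR/Cas9, of the proximal promoter and the adjacent exons of Slc16a13, which encodes a monocarboxylate transporter. The mice came from a single targeted line, and no lean or chow-fed mice were among the libraries analysed here. In these bulk samples fewer cells of a type and less RNA per cell cannot be told apart.

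PGC-1 coactivators do not bind DNA themselves. They are recruited by transcription factors such as estrogen-related receptor alpha (Esrra) and the nuclear respiratory factors, nuclear respiratory factor 1 (Nrf1) and GA-binding protein (whose DNA-binding subunit is Gabpa), to genes of the respiratory chain and to Tfam, whose product packs mitochondrial DNA and starts its transcription. The mitofusins Mfn1 and Mfn2 join the outer membranes of neighbouring mitochondria, Opa1 joins the inner membranes and shapes the cristae, and the dynamin-related GTPase encoded by Dnm1l constricts and divides the organelle.

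Total counts per library ranged from 20150712 to 35218243. Counts of Slc16a13 were 99 to 302 in WT livers and 0 to 8 in KO livers. In muscle they were 4 to 22 in WT libraries and 11 to 40 in the libraries labelled KO, which goes against the label, so the muscle groups are named here by their labels only. The deletion leaves part of the gene in place, and counts per gene do not separate the deleted part. The summed level of 6 hepatocyte markers was at least 72750 CPM (counts scaled to a common library size) in liver and at most 7.97 CPM in muscle, and that of 6 myofibre markers was at least 127514 CPM in muscle and at most 54.5 CPM in liver. In 4 KO liver libraries, those of mice 532, 583, 602 and 611, long genes were under-represented relative to the other livers, least so in mouse 611. Each gene's log2 CPM, taken relative to its mean over all liver libraries, was regressed on log2 gene length. The slopes were -0.57, -0.26, -0.44 and -0.08 in these libraries, whereas they were 0.04 to 0.10 in the WT livers. A slope of 0 is thus that of the average liver library, not an absence of bias. The 4 KO libraries, those with a slope below 0, are referred to below as length-biased. The fits that compare KO liver with WT liver or with muscle are given with and without them. Muscle slopes, relative to the mean over muscle libraries, were -0.08 to 0.05, and no muscle library was set apart.

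Levels of different genes were compared per length, as RPKM, reads scaled by gene length and library size. In WT liver Mfn2 had the highest median, 46.4 RPKM (range 38.1 to 51.6), and it was above Opa1 in 11 of 11 mice. Opa1 had 28.7 RPKM (27.1 to 30.2) and Tfam 28.4 RPKM (25.2 to 31.7), and these ranges overlapped, with Opa1 the higher in 7 of 11 mice. Mfn1 followed with 19.4 RPKM (17.96 to 21.7), then Gabpa with 16.01 RPKM (14.2 to 19.9), Esrra with 12.5 RPKM (8.57 to 16.95) and Dnm1l with 10.3 RPKM (8.77 to 11.5). The ranges of these neighbours overlapped, but Mfn1 was above Gabpa and Gabpa above Esrra in 11 of 11 mice, and Esrra above Dnm1l in 9 of 11. Nrf1 had 4.72 RPKM (3.88 to 5.19). Both coactivators were at the bottom of the order, Ppargc1a with 1.79 RPKM (1.47 to 2.997) and Ppargc1b with 0.855 RPKM (0.523 to 1.10), and the ranges of Nrf1, Ppargc1a and Ppargc1b did not overlap.

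In WT muscle the order changed at the top. Mfn2 again led with 139 RPKM (124 to 145), and Mfn1 with 78.1 RPKM (60.5 to 87.0) and Esrra with 39.03 RPKM (29.3 to 46.5) moved above Tfam with 25.3 RPKM (22.4 to 27.4) and Opa1 with 24.5 RPKM (21.4 to 29.2). Tfam and Opa1 overlapped here too, with Tfam the higher in 6 of 11 mice. Dnm1l had 15.0 RPKM (13.1 to 18.04) and Gabpa 13.7 RPKM (11.0 to 16.4), and Dnm1l was above Gabpa in 9 of 11 mice. Nrf1 had 6.13 RPKM (5.25 to 7.18), Ppargc1a 4.57 RPKM (3.64 to 5.80) and Ppargc1b 1.36 RPKM (0.608 to 1.97). The ranges of Nrf1 and Ppargc1a overlapped in muscle, though Nrf1 was higher in 11 of 11 mice. The members that share a task were thus not present in equal amounts, since the median ratio of Mfn2 to Mfn1 was 2.30 in WT liver (1.76 to 2.77) and 1.79 in WT muscle (1.62 to 2.05), and that of Ppargc1a to Ppargc1b was 2.10 (1.53 to 4.13) and 3.37 (2.09 to 6.41). The ratio of Opa1 to Dnm1l, a fusion over a fission transcript, was 2.81 (2.42 to 3.24) in WT liver and 1.62 (1.48 to 1.84) in WT muscle, with no overlap. The length that the deposited RPKM implies for Opa1 differed between the tissues, with a median of 4030 bases in liver and 5046 bases in muscle, so its level per length is not over a fixed length. Only for Dnm1l did the implied length stay steady, within 0.19% of its median. For the other genes its largest departure ran from 5.26% (Mfn2) to 40.8% (Mfn1), with 30.9% for Ppargc1a and 31.6% for Gabpa. The levels per length and their ratios share this limit.

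**Figure D1:**
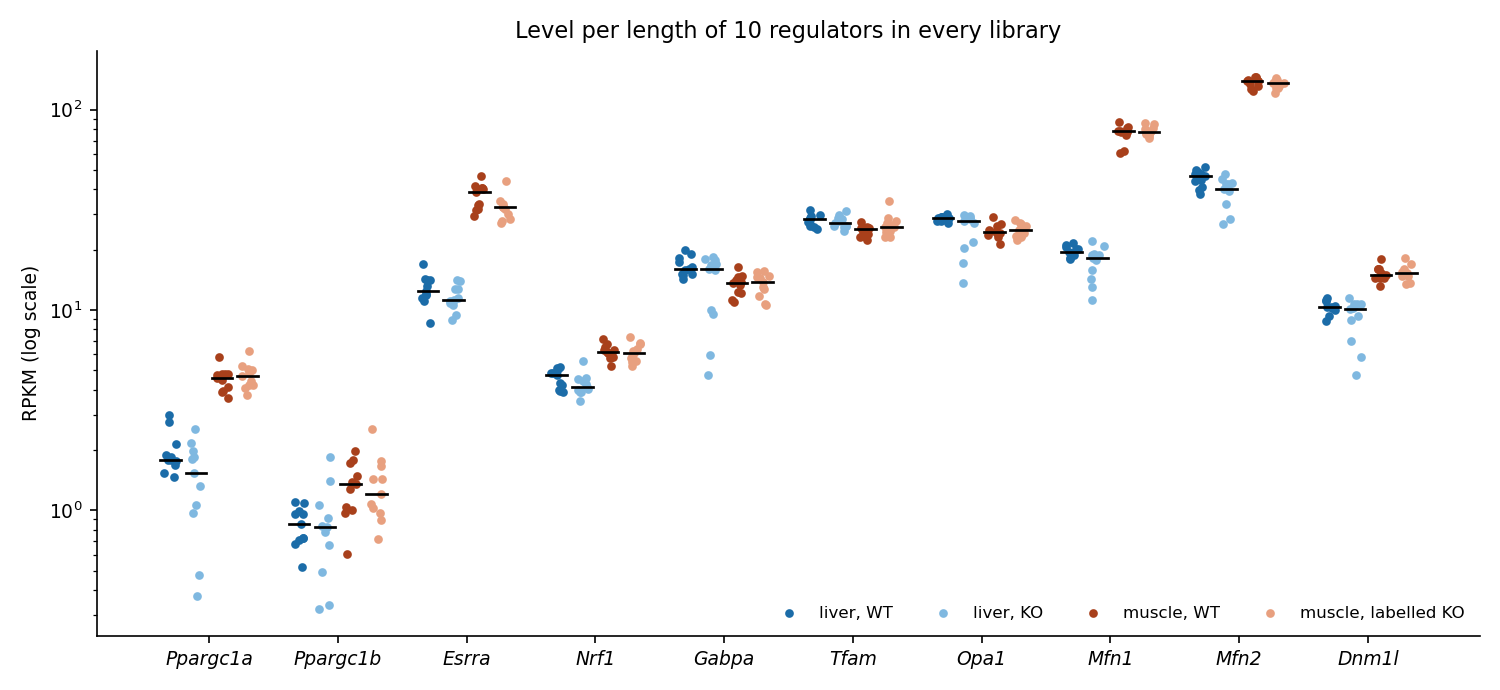
Level of each of the 10 genes in RPKM on a log axis, with a point for each of the 11 libraries of a group and a bar at the median. Mfn2 was highest in all 4 groups and Ppargc1b lowest by median. The low points of Ppargc1a, Gabpa, Opa1 and Dnm1l in KO liver are the length-biased libraries.

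Muscle and liver of the WT mice were compared to ask which regulators differ between a tissue built around contraction and the liver. In this comparison 9 of the 10 genes passed an adjusted p of 0.05, 8 of them higher in muscle and 1 higher in liver. Of all 13907 genes tested, 45.5% were called higher in muscle and 45.5% higher in liver, so a call in itself sets none of them apart, and the sizes are what the data offer. The median log2 difference of the 10 genes was 0.60, against -0.003 over all genes tested. As the 10 genes were chosen with earlier results of these data known, this contrast is a description. Adjusted p-values are from the quasi-likelihood test of edgeR, adjusted by Benjamini-Hochberg over all genes tested, and intervals cover 95%.

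The mitofusins differed most. Mfn1 had 1025 to 1747 counts in the 11 WT livers (median 1289) and 4115 to 7675 counts in the 11 WT muscles (median 5216), with no overlap. It was 3.72-fold higher in muscle (interval 3.53 to 3.93, adjusted p = 1.09e-24). Mfn2, which also tethers mitochondria to the endoplasmic reticulum, had 3224 to 7357 counts in liver and 11739 to 20452 in muscle. It was 3.06-fold higher in muscle (2.85 to 3.29, adjusted p = 1.88e-20). The inner-membrane fusion gene Opa1 barely differed, with 2305 to 4009 counts in liver and 2631 to 4692 in muscle. Its fold was 1.06 (1.01 to 1.10, adjusted p = 0.0176), and this call was lost without mouse 612 (log2 difference 0.07, adjusted p = 0.0523). Per length Opa1 was higher in muscle in only 1 of 11 WT mice, so its direction depends on whether counts or RPKM are read. The fission gene Dnm1l had 840 to 1404 counts in liver and 1232 to 2457 in muscle and was 1.45-fold higher in muscle (1.35 to 1.56, adjusted p = 4.43e-10), and per length it was higher in muscle in 11 of 11 mice.

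Among the coactivators, Ppargc1a had 176 to 294 counts in WT liver and 448 to 682 in WT muscle, with no overlap. It was 2.20-fold higher in muscle (1.97 to 2.44, adjusted p = 1.96e-13). Ppargc1b had 37 to 118 counts in liver and 47 to 221 in muscle. These ranges overlapped, and the fold was 1.55 (1.23 to 1.95, adjusted p = 0.000738), with 9 of 11 mice higher in muscle per length. The 3 transcription factors went different ways. Esrra, an orphan nuclear receptor that is both partner and target of PGC-1 alpha, had 429 to 763 counts in liver and 1337 to 2976 in muscle and was 2.95-fold higher in muscle (2.62 to 3.32, adjusted p = 2.19e-15). Nrf1 had 183 to 376 counts in liver and 334 to 523 in muscle and was 1.49-fold higher in muscle (1.37 to 1.62, adjusted p = 1.12e-09). Gabpa had 926 to 1440 counts in liver and 688 to 1343 in muscle. It was the only gene of the 10 that was called lower in muscle, at 0.796 of its liver level (0.755 to 0.839, adjusted p = 7.64e-09), and per length it was higher in muscle in 1 of 11 mice.

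Tfam had 850 to 1383 counts in WT liver (median 1021) and 955 to 1464 in WT muscle (median 1083), and the groups overlapped over most of their range. Its ratio of muscle to liver was 0.995 (0.950 to 1.04, adjusted p = 0.848), so that ratios below 0.950 or above 1.04 lay outside the interval. Tfam thereby differed from the genes that are held to act on it, as the interval of Tfam overlapped neither that of Ppargc1a, nor that of Nrf1, nor that of Gabpa, although the differences between genes were not tested. Per length it was higher in muscle in 2 of 11 WT mice.

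**Figure D2:**
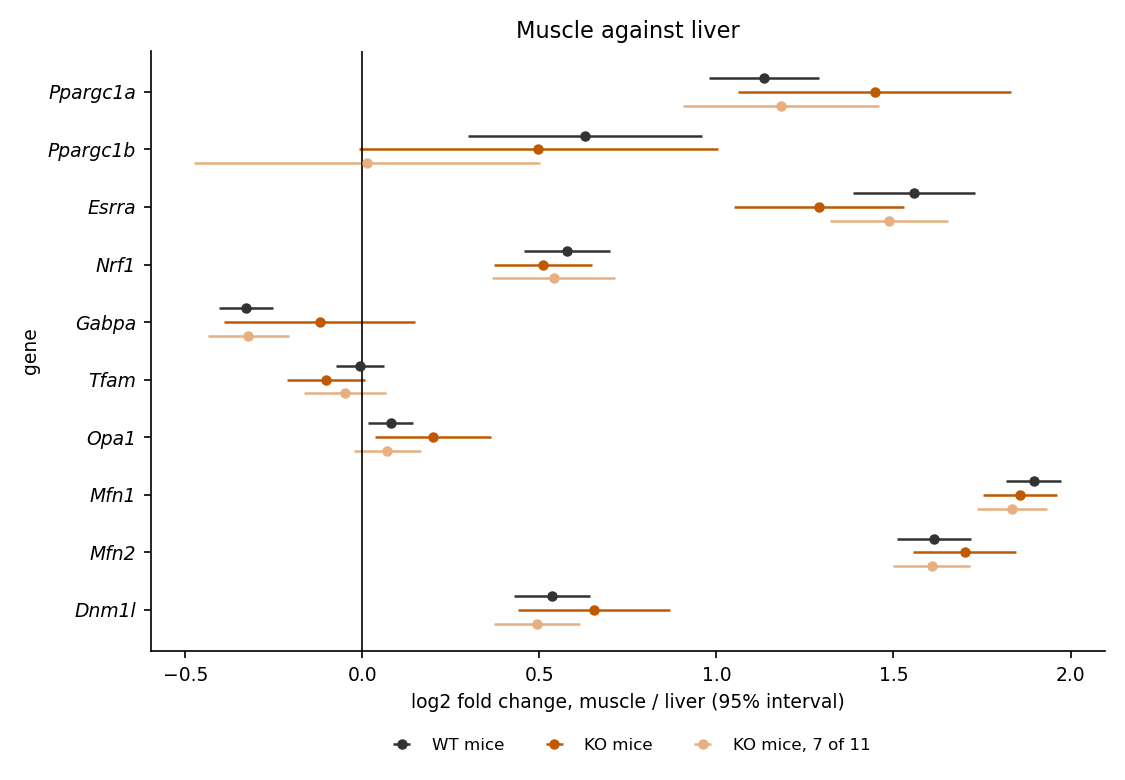
Log2 fold change of muscle against liver (x axis) for each gene in WT mice, in all 11 KO mice and in the 7 KO mice without a length-biased liver library, with points for the estimate and lines for the 95% interval. Mfn1, Mfn2, Esrra and Ppargc1a lie furthest to the right in all 3 fits, Tfam lies near 0, and Gabpa lies left of 0 with an interval that includes 0 only when all KO mice are used.

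The same comparison in the KO mice, whose libraries the WT fit did not use, called 7 of the 10 genes, all higher in muscle, where 42.8% of 13981 genes were called higher in muscle and 43.9% higher in liver. Mfn1 was 3.62-fold higher in muscle (3.37 to 3.89), Mfn2 3.25-fold (2.94 to 3.60), Ppargc1a 2.73-fold (2.09 to 3.56), Esrra 2.44-fold (2.07 to 2.89), Dnm1l 1.57-fold (1.36 to 1.83) and Nrf1 1.43-fold (1.295 to 1.57), with adjusted p of 2.87e-06 or less by edgeR. Without the 4 length-biased mice these folds were 3.57, 3.05, 2.27, 2.80, 1.41 and 1.45 in the same order, with adjusted p of 1.12e-05 or less by edgeR. Opa1 was 1.15-fold higher (1.03 to 1.29, edgeR adjusted p = 0.0228), and this call was lost without mouse 602 (edgeR adjusted p = 0.0603) and without the 4 length-biased mice (1.05-fold, edgeR adjusted p = 0.149). Ppargc1b (1.41-fold, 0.994 to 2.01), Gabpa (0.920, 0.763 to 1.11) and Tfam (0.931, 0.863 to 1.004) did not pass, with edgeR adjusted p of 0.0619, 0.390 and 0.0721. Tfam passed without mouse 587 (log2 difference -0.12, edgeR adjusted p = 0.0462), and Ppargc1b passed without mouse 568 (0.63, adjusted p = 0.0257) or without mouse 570 (0.72, adjusted p = 0.00579). With the 4 length-biased mice left out, Gabpa was lower in muscle at 0.799 of its liver level (0.739 to 0.865, edgeR adjusted p = 3.04e-05), close to the value in WT mice, and Ppargc1b was at 1.01-fold (0.719 to 1.42). The ranges of Ppargc1b therefore leave its tissue pattern in KO mice unsettled, and those of the mitofusins do not.

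The promoter windows of 4 genes are shown, those with an exact match to an NRF1 or ETS element. They were picked with the unlike tissue patterns of genes that share an element already known. The windows were read from RefSeq on GRCm38.p6, 250 bases before to 50 bases after a start site. Windows on the chromosome that carries Ppargc1b were left out of the search and of the shares below. The other 9 of the 10 genes had 13 windows in all. Capitals mark exact matches on either strand to the core of the NRF1 element (GCGCATGC) or to an ETS element of the kind GABP binds (CCGGAAGT). Tfam (chr10:71237995-71238294, minus strand) and Mfn1 (chr3:32529232-32529531, plus strand) each held the ETS element, whose leftmost base was at -47 and -44 from the start site, and Esrra (chr19:6921759-6922058, minus strand) and Opa1 (chr16:29579084-29579383, plus strand) each held the NRF1 core, at -34 in Esrra and, as a pair of overlapping matches, at -59 and -57 in Opa1.
Tfam: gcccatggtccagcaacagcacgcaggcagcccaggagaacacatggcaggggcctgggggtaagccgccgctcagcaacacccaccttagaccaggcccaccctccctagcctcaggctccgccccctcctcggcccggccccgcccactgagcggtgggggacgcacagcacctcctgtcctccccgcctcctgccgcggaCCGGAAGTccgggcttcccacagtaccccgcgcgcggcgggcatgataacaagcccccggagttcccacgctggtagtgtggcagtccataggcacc
Mfn1: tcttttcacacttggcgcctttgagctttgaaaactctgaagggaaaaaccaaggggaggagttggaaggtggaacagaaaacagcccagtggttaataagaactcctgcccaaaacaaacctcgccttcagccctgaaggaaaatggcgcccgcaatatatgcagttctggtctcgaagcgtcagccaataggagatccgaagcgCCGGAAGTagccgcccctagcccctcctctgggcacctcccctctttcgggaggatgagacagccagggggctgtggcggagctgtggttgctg
Esrra: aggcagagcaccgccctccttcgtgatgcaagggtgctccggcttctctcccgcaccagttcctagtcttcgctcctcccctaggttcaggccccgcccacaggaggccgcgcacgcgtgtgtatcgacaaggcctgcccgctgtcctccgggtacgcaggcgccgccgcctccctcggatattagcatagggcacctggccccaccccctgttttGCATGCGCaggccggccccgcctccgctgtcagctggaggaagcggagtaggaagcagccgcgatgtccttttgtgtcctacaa
Opa1: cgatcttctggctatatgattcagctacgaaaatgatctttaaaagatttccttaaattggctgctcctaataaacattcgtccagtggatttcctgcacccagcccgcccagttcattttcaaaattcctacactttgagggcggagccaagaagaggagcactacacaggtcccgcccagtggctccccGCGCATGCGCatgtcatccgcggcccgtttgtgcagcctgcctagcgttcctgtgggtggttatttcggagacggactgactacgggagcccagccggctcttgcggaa
Tfam and Mfn1, with the ETS element at nearly the same distance from the start, were at 0.995 and 3.72-fold in the comparison of muscle with liver. Opa1 and Esrra, with the NRF1 core, were at 1.06 and 2.95-fold. As these pairs were picked for that contrast, it is a description, and a link of element to tissue pattern was not tested. The ETS letters were found in 3.92% and the NRF1 core in 2.73% of 32544 windows searched, and each was found in 2 of the 9 genes. A share of windows and a share of genes are unlike measures, as the 9 genes had 13 windows. The bases G and C made up a median of 53.0% over all windows and 53.3% to 70.3% of the 4 shown. The part of this base content in the matches was not tested. The YY1 element AAGATGGC was found in Gabpa (2.77% of windows) and TGACGT, part of the cAMP response element, in Ppargc1a and Mfn2 (7.55%). Ppargc1a and Mfn2 were both higher in WT muscle than in WT liver (log2 difference 1.13 and 1.61), as were 8 of the 10 genes in all. A link of these letters to the tissue pattern was not tested. The ERR element TCAAGGTCA (0.41%), the full cAMP response element TGACGTCA (1.80%), the GC box GGGGCGGGG (11.5%) and the E-box CACGTG (7.17%) were found in none of the 9 genes. A match describes the letters in these windows only.

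The spread between libraries of a tissue also differed among the genes. It was taken as the biological coefficient of variation, the relative spread beyond counting error, which had a median of 19.3% over all genes in liver and 11.1% in muscle. Ppargc1a had 31.9% in liver, at the 85.2 percentile of genes tested, and 8.24% in muscle, at the 29.9 percentile. Ppargc1b was variable in both, with 35.97% in liver and 29.5% in muscle, at the 89.6 and 90.0 percentiles. Tfam and Mfn1 were among the steadiest genes in liver, with 9.13% and 9.28%, at the 1.3 and 1.8 percentiles. In muscle Opa1 had 5.89% and Gabpa 6.29%, at the 4.1 and 7.6 percentiles. The liver values include the length-biased libraries. Within WT liver alone the coefficient of variation of CPM was 17.02% for Ppargc1a, 23.5% for Ppargc1b, 4.26% for Tfam, 4.25% for Opa1 and 5.31% for Gabpa.

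KO and WT livers were compared to ask whether the regulators of mitochondrial biogenesis and dynamics change at the transcript level when Slc16a13 is lost. None of the 10 genes passed an adjusted p of 0.05 in edgeR, where 3 of 13005 genes (0.0231%) did. At an unadjusted p of 0.05 there were 2 of the 10, Tfam and Mfn2, against 12.9% of all genes tested, and DESeq2 and limma-voom also called 0 of the 10 after adjustment. In muscle none of the 10 passed after adjustment (1 of 13266 genes did, 0.00754%), and Esrra alone had an unadjusted p under 0.05, against 8.64% of all genes. DESeq2 and limma-voom called 0 of the 10 in muscle as well.

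The liver estimates of several genes depended on the 4 length-biased KO libraries, although 0 of the 10 genes were called with or without them. In CPM, scaled with TMM within liver, Ppargc1a was 7.57 to 12.8 (median 8.88) in WT livers and 2.52 to 13.7 (median 7.71) in KO livers. All 4 length-biased libraries were below the WT range (2.52 to 7.11 CPM), and of the other 7, 5 lay within it, 1 below and 1 above. The log2 difference of KO against WT was -0.28 (interval -0.69 to 0.12, adjusted p = 0.438), and without the 4 libraries it was 0.01 (-0.27 to 0.28). Opa1, Gabpa and Dnm1l moved in the same way. Opa1 was 106 to 120 CPM in WT livers, 62.9 to 99.0 CPM in the 4 libraries and 108 to 122 CPM in the other 7, and its log2 difference went from -0.13 (-0.30 to 0.03) to 0.00 (-0.07 to 0.08). Gabpa was 40.4 to 47.8 CPM in WT livers, 16.7 to 35.6 CPM in the 4 libraries and 40.97 to 50.1 CPM in the other 7, and its log2 difference went from -0.19 (-0.46 to 0.09) to 0.05 (-0.04 to 0.14). Dnm1l was 33.7 to 48.0 CPM in WT livers, 20.0 to 37.4 CPM in the 4 libraries and 36.8 to 47.0 CPM in the other 7, and its log2 difference went from -0.13 (-0.36 to 0.09) to 0.04 (-0.09 to 0.17). With gene length removed from every library, all 11 KO livers included, the log2 difference was 0.03 for Opa1 (-0.07 to 0.12), -0.02 for Dnm1l (-0.16 to 0.12), -0.16 for Ppargc1a (-0.45 to 0.14) and -0.14 for Gabpa (-0.38 to 0.09), so the estimates of Ppargc1a and Gabpa stayed below 0. Gabpa and Mfn1 have median implied lengths of 2806 and 2641 bases, with single values off by up to 31.6% and 40.8%. In CPM, Gabpa was below the WT range in all 4 length-biased libraries and Mfn1 in 1 of them. Per length Mfn1 fell to 11.3 RPKM in KO livers, against 17.96 RPKM or more in WT livers. The part of gene length in these values was not tested. Summed markers of macrophages were 180 to 440 CPM in KO and 201 to 258 CPM in WT livers, those of endothelium 63.4 to 126 CPM and 103 to 118 CPM, and their part was not tested.

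Mfn2 was 165 to 206 CPM in WT livers and 126 to 194 CPM in KO livers, with 3 of the 4 length-biased libraries below the WT range and the other 7 within it. Its log2 difference of -0.15 (interval -0.29 to -0.00, unadjusted p = 0.0444, adjusted p = 0.382 in edgeR) became -0.04 (-0.14 to 0.06) without the 4 libraries and -0.00 with gene length removed from every library. Mfn1 did not move with the slope to this extent, with 43.7 to 51.8 CPM in the 4 libraries and 49.4 to 55.9 CPM in the other 7, against 47.5 to 54.2 CPM in WT livers. Its log2 difference was 0.02 (-0.08 to 0.11) and 0.05 (-0.03 to 0.13) without the 4.

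Tfam was the only gene of the 10 whose unadjusted p in liver was under 0.05 both with and without the length-biased libraries. It was 38.3 to 43.9 CPM in WT livers (median 41.5) and 40.5 to 50.4 CPM in KO livers (median 44.01), with 6 of 11 KO livers above the WT range, 3 of them length-biased, and none below it. The log2 difference was 0.13 (0.03 to 0.22, unadjusted p = 0.0106, adjusted p = 0.382 in edgeR), a 1.09-fold difference. Without the 4 libraries it was 0.10 (0.02 to 0.18, unadjusted p = 0.0205, adjusted p = 0.999 in edgeR), where 2.96% of 13210 genes had an unadjusted p under 0.05, and with gene length removed it was 0.07 (-0.01 to 0.16, unadjusted p = 0.0891 in edgeR). The estimate was positive with each library left out (0.12 to 0.15) but did not hold after adjustment.

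Esrra showed 16.7 to 28.6 CPM in WT livers (median 23.7), 22.04 to 34.99 CPM in the 4 length-biased KO livers and 17.3 to 22.4 CPM in the other 7. Of the 4 libraries, 2 were above the WT range and 2 within it. Its log2 difference in liver was 0.04 (-0.19 to 0.27), and without the 4 libraries it was -0.18 (-0.35 to -0.01, unadjusted p = 0.0390, adjusted p = 0.999 in edgeR). Ppargc1b was 1.91 to 4.06 CPM in WT livers, 1.22 to 3.08 CPM in the 4 libraries and 2.37 to 6.55 CPM in the other 7. Its log2 difference was 0.08 (-0.39 to 0.56) with all libraries and 0.38 (-0.01 to 0.78, unadjusted p = 0.0550 in edgeR) without the 4. Nrf1 was 7.35 to 11.1 CPM in WT livers and 7.38 to 10.9 CPM in KO livers, so that 11 of 11 KO livers were within the WT range, and its log2 difference was 0.02 (-0.13 to 0.17) with all libraries and 0.00 (-0.17 to 0.17) without the 4.

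**Figure D3:**
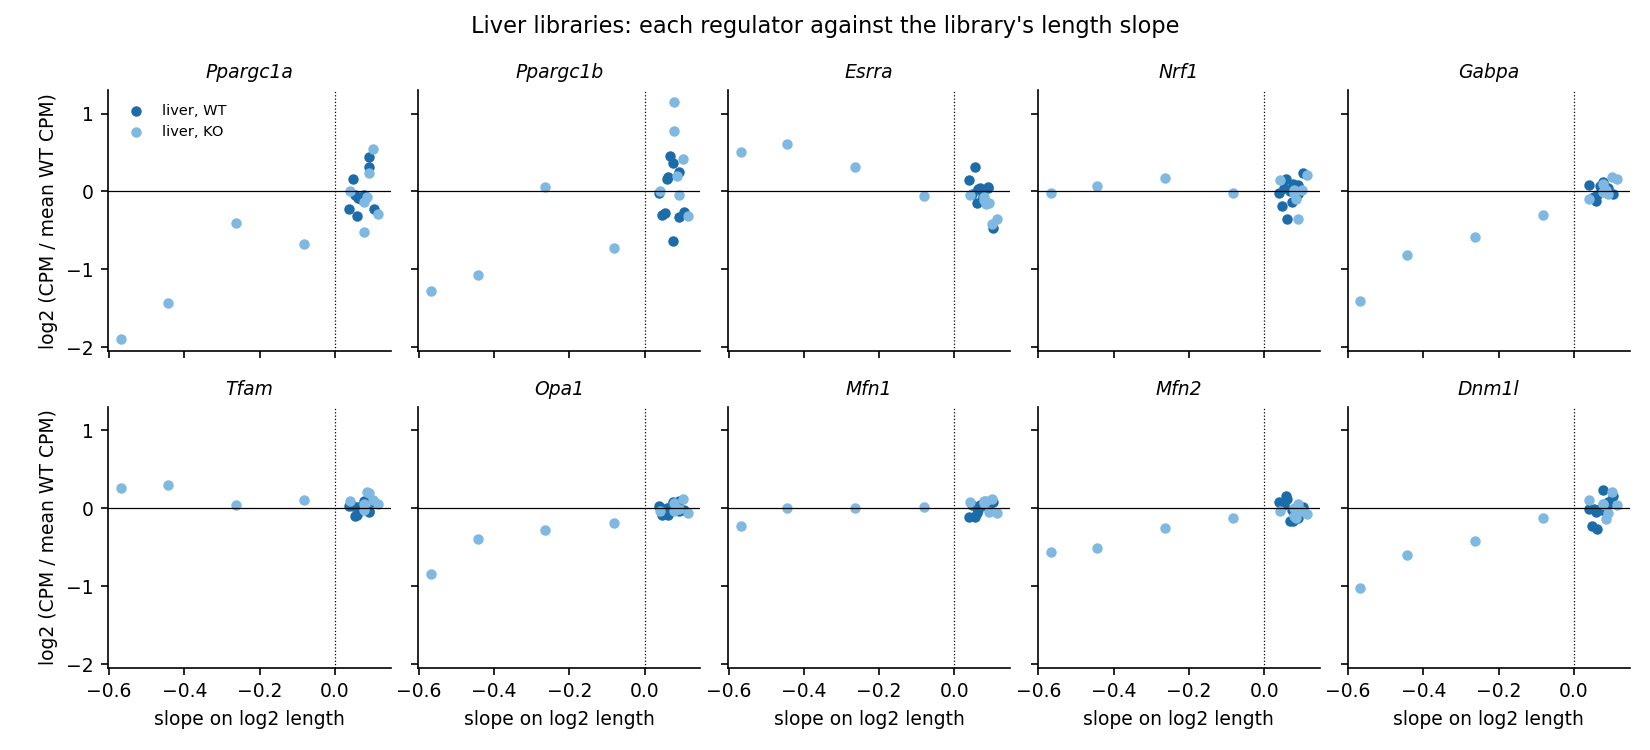
Each panel plots, for the 22 liver libraries, the log2 ratio of a gene's CPM to its mean in WT livers against the library's length slope. The slope is that of log2 CPM, relative to each gene's mean over all liver libraries, on log2 gene length. The 4 KO libraries left of 0 lie below the WT mean for Ppargc1a, Gabpa, Opa1, Mfn2 and Dnm1l and above it for Tfam, and for Ppargc1b and Esrra 1 of the 4 goes the other way from the rest, while the other 7 KO libraries lie among the WT libraries in most panels.

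In muscle the groups overlapped for each of the 10 genes. Esrra had 58.0 to 86.2 CPM in WT muscles (median 74.6) and 52.5 to 77.7 CPM in the muscles labelled KO (median 60.8), with 4 of 11 below the WT range and none above it. The log2 difference was -0.21 (interval -0.38 to -0.04, unadjusted p = 0.0159, adjusted p = 0.509 in edgeR), and with each library left out in turn it was -0.25 to -0.18. Summed adipocyte markers were 69.1 to 303 CPM in WT muscles and 98.6 to 748 CPM in the muscles labelled KO, summed markers of slow and oxidative fibres were 30.5 to 1645 CPM and 58.6 to 1359 CPM, and their part in the Esrra values was not tested. Ppargc1a had 18.6 to 24.6 CPM in WT muscles and 19.1 to 24.9 CPM in those labelled KO, and Mfn2 had 540 to 657 CPM and 525 to 613 CPM. The other 9 genes had log2 differences from -0.05 (Mfn2) to 0.04 (Tfam). The intervals of most of these were narrow, -0.06 to 0.15 for Ppargc1a, -0.03 to 0.12 for Tfam, -0.06 to 0.06 for Opa1, -0.09 to 0.07 for Mfn1 and -0.13 to 0.03 for Mfn2. For these genes a log2 difference of more than 0.15 in either direction lay outside the interval, whereas the interval of Ppargc1b, -0.42 to 0.34, leaves room for a larger one.

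The difference between the genotype effects of the tissues was tested directly, as liver effect minus muscle effect. None of the 10 genes passed in edgeR after adjustment (1 of 14739 genes did, 0.00678%), and none had an unadjusted p under 0.05, against 16.2% of all genes. DESeq2 and limma-voom also called 0 of the 10. The largest estimates were those of Ppargc1a, -0.32 (-0.72 to 0.09), and Esrra, 0.26 (-0.02 to 0.55). With the mouse as replicate block, which pairs the tissues of an animal, the estimate for Ppargc1a was -0.40 (-0.81 to -0.00, unadjusted p = 0.0495, adjusted p = 0.324 in edgeR). Without the 4 mice with length-biased livers it was -0.05 (-0.34 to 0.24), that of Esrra was 0.07 (-0.18 to 0.32), and Ppargc1b had the largest, 0.62 (0.04 to 1.19, unadjusted p = 0.0353, adjusted p = 1 in edgeR).

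**Figure D4:**
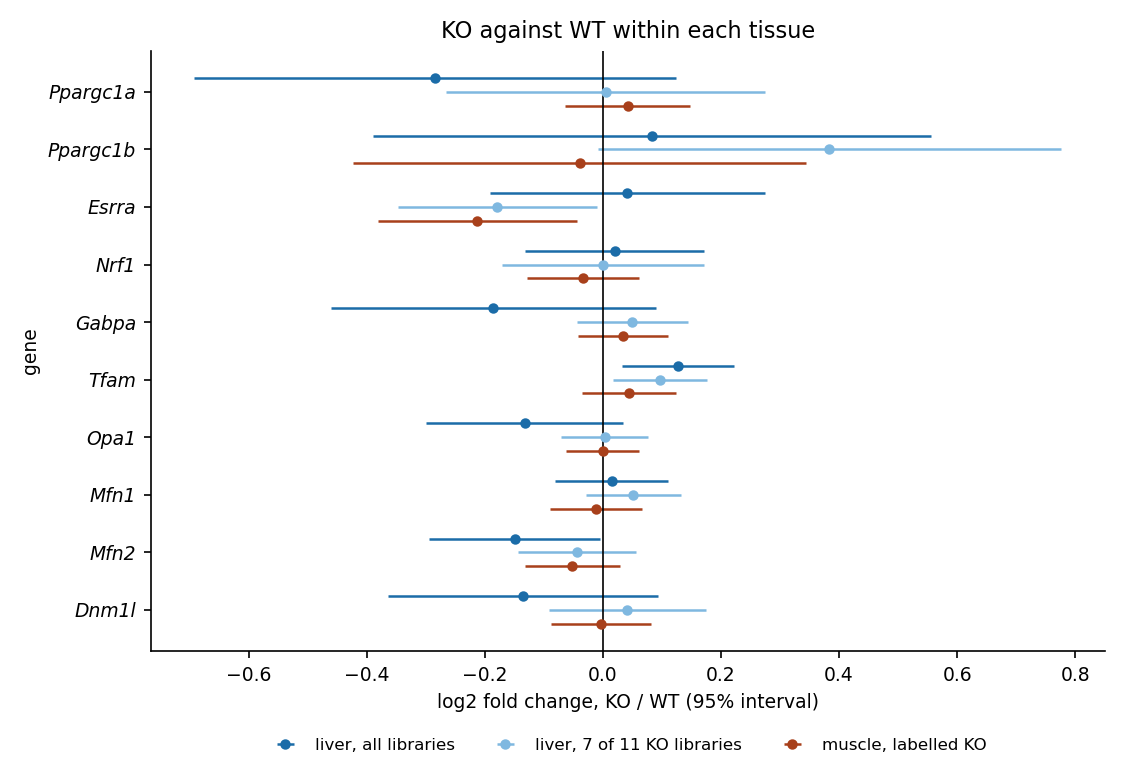
Log2 fold change of KO against WT (x axis) for each gene in liver with all libraries, in liver with 7 of the 11 KO libraries, and in muscle, with points for the estimate and lines for the 95% interval. The liver estimates of Ppargc1a, Gabpa, Opa1, Mfn2 and Dnm1l lie nearer to 0 with 7 KO libraries than with 11, that of Ppargc1b lies further from it, that of Tfam stays right of 0, and that of Esrra falls on the left, near its value in muscle.

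Genes that act with these regulators were described from 7 lists. None of their genes passed an adjusted p of 0.05 in edgeR in the liver, muscle or interaction comparison. At an unadjusted p of 0.05 in liver, against 12.9% of all genes, there were 5 of 19 genes for fusion and cristae, all higher in KO. The known transcripts raised by PGC-1, ERR alpha or NRF1 held 3 of 24 and the list for mitochondrial DNA upkeep 2 of 26. The kinases and deacetylases held 1 of 12 and the mitophagy list 1 of 16. The coactivators, corepressors and nuclear receptors held 0 of 23 and the fission list 0 of 12. Without the length-biased libraries, where 2.96% of all genes were under that value, 1 mitophagy gene was, lower in KO, and the other lists held 0. In muscle no list held more than 3 such genes (3 of 16 for mitophagy, against 8.64% of all genes). In the interaction, against 16.2% of all genes, the kinases and deacetylases held 5 of 13, the mitochondrial DNA list 5 of 26 and the others 1 to 4. With the 4 mice with length-biased livers left out, 532 of 14900 genes were under that value in the interaction. The kinases and deacetylases then held 1 of 13, the mitochondrial DNA list 1 of 26 and the others 0.

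Between muscle and liver of WT mice the lists split in both directions, against 45.5% called each way over all genes. The most one-sided list was that of known transcripts raised by PGC-1 coactivators, ERR alpha or NRF1, with 24 of 30 higher in muscle and 6 of 30 higher in liver and a median log2 difference of 1.31, against -0.003 over all genes. Mb (myoglobin) had 0 to 4 counts in liver and 7084 to 76061 in muscle, Cox6a2, a subunit of cytochrome c oxidase, 0 to 1 and 10213 to 18587, and Ckmt2, the mitochondrial creatine kinase, 0 to 5 and 10224 to 39103. In the other direction were G6pc (2279 to 29700 counts in liver and 0 to 2 in muscle) and Pck1 (log2 difference -6.92), both gluconeogenic enzymes, and Alas1 (-3.17), which starts haem synthesis. Mb, Cox6a2 and Ckmt2 are also typical of striated muscle, and G6pc and Pck1 of the liver. The list was chosen with earlier results of these data known, and its lean depends on how many genes typical of a tissue it holds. The part of the PGC-1 coactivators, ERR alpha or NRF1 in this lean was not tested.

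Of 24 coactivators, corepressors and nuclear receptors, 11 were higher in muscle and 10 in liver (median 0.15). Perm1, a muscle regulator that works with PGC-1 and ERR, had 1 to 8 counts in liver and 1955 to 6362 in muscle, and the myocyte enhancer factors Mef2c (log2 difference 6.95) and Mef2d (3.22) followed. Ppara (-5.70), a receptor that drives fatty acid oxidation in liver, Pparg (-1.82) and Rxra (-1.38) were the most liver-biased. Of 12 genes on the list of kinases and deacetylases, which also holds subunits of kinases, 8 were higher in muscle and 3 in liver (median 0.40). Camk2a had 1 to 14 counts in liver and 11195 to 16509 in muscle, and Prkab2 (7.49) and Camk2d (2.29) were higher in muscle. Sirt3 (-2.96), a mitochondrial deacetylase, Camkk2 (-1.48) and Prkab1 (-1.01) were higher in liver, so that the 2 beta subunits of AMPK, Prkab1 and Prkab2, had opposite tissue patterns.

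The list for mitochondrial DNA, to which Tfam belongs by function, had 10 of 26 genes higher in muscle and 13 of 26 higher in liver, near the 45.5% called each way over all genes, and a median of -0.16. Slc25a36 (4.04), Rrm2b (2.88) and the mitochondrial RNA polymerase Polrmt (0.92) were higher in muscle, and Dna2 (-2.93), Tk2 (-2.18) and the accessory subunit of the DNA polymerase, Polg2 (-1.42), were higher in liver. Of 18 genes for fusion and cristae, 8 were higher in muscle and 6 in liver (median 0.08). The scaffold genes Chchd3 (1.196), Samm50 (1.03) and Immt (1.003) were higher in muscle, and 2410015M20Rik (-1.31), Phb2 (-1.17) and Chchd6 (-0.86) in liver. None of these reached the log2 differences of Mfn1 (1.90) and Mfn2 (1.61). Of 13 fission genes 7 were higher in muscle and 6 in liver (median 0.51). Gdap1 had 0 counts in 11 of 11 WT livers and 411 to 796 in muscle, and Spire1 (3.71) and Mff (1.96), a receptor for the Dnm1l protein, were higher in muscle, whereas Inf2 (-2.30), Mtfr1 (-1.61) and Mief1 (-0.46) were higher in liver. Of 16 mitophagy genes 8 were higher in muscle and 7 in liver (median 0.26), led by Pink1 (2.06), Map1lc3a (1.84) and Ulk1 (1.60) in muscle and by Gabarapl1 (-2.53), Phb2 and Fkbp8 (-1.09) in liver.

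Whether the other 9 genes followed Ppargc1a from mouse to mouse was examined in each group of 11 libraries, as 36 relations in all, by two-sided permutation tests with Benjamini-Hochberg adjustment over the 36. No relation passed the threshold by Pearson's r and also by Spearman's rho. In WT liver r ranged from -0.34 (Mfn2) to 0.30 (Esrra), and in WT muscle from -0.16 (Ppargc1b) to 0.53 (Tfam, rho 0.45, permutation p = 0.0892, adjusted p = 0.328). In the muscles labelled KO, Opa1 had r = 0.76 (permutation p = 0.00670, adjusted p = 0.0402) and rho = 0.80 (permutation p = 0.00481, adjusted p = 0.0866), and r was 0.80 without the 2 libraries farthest from the median of Ppargc1a. These adjusted values count the KO livers with all 11 libraries, and with 7 KO livers in the family of 36 they were 0.241 for r and 0.173 for rho (permutation tests). In WT muscle the r of this pair was 0.00, and the difference between the groups was not tested. With gene length removed, Tfam in WT muscle had r = 0.82 and rho = 0.83 (adjusted permutation p = 0.126 and 0.103). The KO livers fell into the 4 length-biased libraries and the other 7, so no pooled r is given for them. Within the 7, r ranged from -0.42 (Esrra) to 0.52 (Mfn2, exact permutation p = 0.224), and the adjusted exact p was 0.939 or more for each gene.

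Levels in liver and muscle of the same mouse were also related. Of 20 relations between liver and muscle of the same mouse, 10 genes in WT and in KO mice, none passed after adjustment by permutation tests on log2 CPM, which at 7 to 11 mice does not show that the tissues vary independently. In the 11 WT mice r ranged from -0.55 (Mfn2, permutation p = 0.0868, adjusted p = 0.723) to 0.35 (Ppargc1a). The KO mice fell into the same 4 and 7, and in the 7 without a length-biased liver r ranged from -0.78 (Ppargc1b, rho -0.79, exact permutation p = 0.0403, adjusted p = 0.579) to 0.71 (Esrra, rho 0.64, exact permutation p = 0.0810, adjusted p = 0.579). Without the 2 mice farthest from the liver median, r was -0.30 for Ppargc1b and 0.71 for Esrra. Over all 11 KO mice, which mix both kinds of liver library, Ppargc1b had r = -0.73 (adjusted permutation p = 0.223), and -0.70 without the 2 farthest. With gene length removed it had r = -0.81 (adjusted permutation p = 0.0448), -0.75 without the 2 farthest, and rho = -0.69 (adjusted permutation p = 0.227).

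Across the 11 WT libraries of a tissue, the genes whose log2 CPM was most like that of Ppargc1a were Arhgap27 (r = 0.93), Unc5a (0.90) and Rab27a (0.87) among 13004 in liver and Kdm1b (0.93), Eea1 (0.89) and Ube3a (0.89) among 13265 in muscle. These were picked as the highest of many, and libraries share depth and length slope, so the values are a description. In the 7 KO livers without length bias the r of the liver genes was -0.23, 0.28 and 0.42, and in the 11 muscles labelled KO that of the muscle genes was 0.16, 0.62 and 0.48. For the other members the closest gene in WT liver was Zswim1 for Ppargc1b (r = 0.91, and 0.68 in the 7 KO livers), Gm12070 for Esrra (0.92 and -0.08), Naa25 for Nrf1 (0.94 and 0.64), Fastkd5 for Gabpa (0.94 and 0.03), Gm15535 for Tfam (0.87 and 0.01), Gnpnat1 for Opa1 (0.87 and 0.48), Zfp930 for Mfn1 (0.92 and -0.68), Actg1 for Mfn2 (0.94 and 0.34) and Larp4 for Dnm1l (0.97 and 0.54). In WT muscle it was Dot1l for Ppargc1b (r = 0.90, and 0.70 in the 11 muscles labelled KO), Pcbp4 for Esrra (0.95 and 0.59), Gm5900 for Nrf1 (0.89 and -0.49), Ralgapa2 for Gabpa (0.94 and 0.05), Cep44 for Tfam (0.92 and 0.81), Akr1b10 for Opa1 (0.89 and 0.17), Ndufa10, a subunit of complex I, for Mfn1 (0.93 and 0.78), Rabl6 for Mfn2 (0.96 and 0.45) and Nt5c3 for Dnm1l (0.89 and 0.03). Of the muscle pairs, Cep44 with Tfam and Ndufa10 with Mfn1 had the highest r in the muscles labelled KO. They are named for these same values, and the r of other pairs there went as low as -0.49.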

How the data were processed

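Poly(A) RNA of liver and muscle was sequenced as stranded, single-end libraries. The authors deposited raw read counts per gene and, in another table, RPKM values that they computed. The aligner, the counting program, its use of strand and the genome build are not given in the sources used here, nor how reads of overlapping genes were assigned. Groups and mouse numbers came from the labels. The 10 genes and the pathway lists were chosen with earlier results of these data known, and all their tests were read from fits over the whole table.

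Counts were fitted with edgeR 4.0.16 (R 4.3.3, TMM scaling, filterByExpr, the quasi-likelihood F-test, p adjusted by Benjamini-Hochberg, threshold 0.05). Within-tissue and tissue comparisons used 22 libraries each, and the interaction all 44. Log2 CPM for correlations had a prior count of 2, and permutation tests used 100000 resamples, or all orders with 7 libraries. All 10 genes passed the filter in each fit, and 26 of 27 genes of the mitochondrial DNA list were matched. Log2 deviations of liver and muscle of the same mouse had a mean correlation of 0.11 over 10426 genes, against -0.01 for different mice. Since the same number marks the same animal, the pairing comes from the labels.

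The named genes were the 10 regulators, Slc16a13, list genes with an adjusted p under 0.05 in a genotype comparison, the 3 genes of each list with the largest difference each way between WT tissues, and the genes with the highest r. Alternatives were DESeq2 1.42.0, limma-voom (limma 3.58.1), library size alone, no filter, at least 10 counts in every library, gene length removed by loess (span 0.3), the mouse as replicate block, a left-out replicate, and no length-biased libraries. The fits were tested on simulated data. The removal of length-biased libraries from the relations was chosen after seeing the data.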

Additional observations from a re-analysis of the deposited data

How the results depend on the processing

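No call of the 10 genes was made in a genotype comparison under any alternative. The number of all genes called moved, since few were called: 3 in liver became 6 with DESeq2 and 1 with at least 10 counts in every library, and 1 in muscle became 0 with limma-voom, without the filter and with at least 10 counts. For the interaction, 1 became 43 with DESeq2, 3 with library size alone, 0 with at least 10 counts and 2 with gene length removed, and it stayed 1 with the mouse as replicate block. The cause was not tested. With the replicate block, 9 of the 10 genes passed between WT tissues and 7 between KO tissues, as without it. Over all genes the calls went from 12653 to 12674 and from 12117 to 12107, and among the lists the coactivators higher in WT muscle went from 11 to 12. Leaving out each replicate left 3 genes called in liver and 1 in muscle each time.

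Between WT tissues Opa1 lost its call without the low-count filter (adjusted p = 0.113), and 8 of the 10 passed there. Between KO tissues Ppargc1b passed with DESeq2, limma-voom, library size alone and at least 10 counts (adjusted p = 0.0218 to 0.0446), Tfam passed without the filter (-0.12, adjusted p = 0.0437) and Opa1 did not (adjusted p = 0.0749). With library size alone the median log2 difference of all genes between KO tissues was 0.11, against -0.02. Uncalled estimates changed sign under some alternatives, as in liver for 8 of the 10 genes, Tfam and Mfn2 excepted. With CPM over 1 fixed length per gene, 2 of 20 levels moved by more than 1 SD, and removing gene length or, chosen after seeing the data, the length-biased libraries left 0 relations past the threshold by r and rho together.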
